A study of Mus musculus with 8 samples.

Results

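Ribosomal protein pseudogenes are copies of the mRNAs of ribosomal protein genes, and 109 of them that carry a name of their own were followed in adult mouse testis. They were chosen by symbol and by total count, as the rows whose symbol joins the name of a large-subunit (Rpl) or small-subunit (Rps) gene to the suffix -ps, with or without a number, and with a total of 10 or more counts over 8 libraries. Rps26-ps1 was left out. The total is a measured value, so it describes the set and supports nothing else here. The table held 56748 rows, of which 289 had such a symbol. Of these, 179 had a total under 10, among them 71 with no count in any library. At the edge of the minimum, 4 members had a total of 10 counts (Rpl36a-ps1, Rpl38-ps1, Rps12-ps26 and Rps2-ps4) and 7 pseudogenes with a total of 9 stayed outside. The study sequenced RNA from whole adult testis in 4 libraries labelled Ak9 knockout (Ak9-/-) and 4 labelled wild type, to compare gene expression between these genotypes. Ak9 encodes an adenylate kinase, one of the enzymes that pass phosphate between adenine nucleotides, and the study is about sperm motility. The labels and design text give neither strain nor exact age, how the Ak9 allele was made, nor whether each library is a separate animal, so p-values measure the spread between libraries, which may be technical.

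A ribosome holds a small and a large subunit, built from ribosomal RNA and one copy each of most ribosomal proteins, and the genes for these proteins are among the most strongly transcribed in most cells. Their short, abundant mRNAs are often reverse transcribed by LINE-1 enzymes and pasted back into the genome of germ cells, which leaves intronless processed pseudogenes on many chromosomes. Such a copy lacks the promoter of its parent, and most copies make little or no RNA of their own. A read from a copy and a read from the parent differ only where their bases differ, so the counts of a near-identical copy depend on how an aligner places such reads. Counting rules for strand and for reads with several matches were not given in the sources used here. The reads of near-identical copies, and of genes that overlap on opposite strands, therefore cannot be told apart here.

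The GENCODE M21 annotation (GRCm38), used for names, chromosomes and sequences, listed 101 members as processed pseudogenes, 5 as transcribed processed pseudogenes and 3 as protein-coding. They lay on 20 chromosomes and belonged to 44 parent genes, with 10 copies of Rpl31, 6 each of Rps15a and Rps2, and 5 of Rpl36. The transcripts of 104 members had 1 exon. Another annotated gene overlapped 21 members on the same strand and 27 on the other strand, and 63 members had no overlap. Of the 109, 105 aligned with their parent transcript over 80% or more of their length. The median identity was 98.8% (84.4% to 100%), 73 members were at 98% or more, and 11 were identical to the parent over their whole length. Cut into overlapping windows of 50 bases, the median member had 66.8% of its windows in the transcript of another gene without a mismatch, 15 members had all of them there and 2 had none.

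The first set of sequences shows bases 95 to 214 of the coding sequence of Rps15a, a small-subunit protein gene, counted from 1 at the A of its ATG, beside the same stretch of the 3 copies that were low together in 1 library. All sequences are from GENCODE M21 transcripts, in the stretch of 120 bases with the most differences. Capitals mark, in a copy, its differences from the parent and, in the parent, the bases at which any copy shown differs.
Rps15a: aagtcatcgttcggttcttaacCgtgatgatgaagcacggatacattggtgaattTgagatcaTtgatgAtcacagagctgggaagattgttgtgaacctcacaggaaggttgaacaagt
Rps15a-ps5: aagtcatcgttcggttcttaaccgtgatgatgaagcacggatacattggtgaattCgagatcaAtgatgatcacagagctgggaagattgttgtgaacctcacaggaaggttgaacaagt
Rps15a-ps6: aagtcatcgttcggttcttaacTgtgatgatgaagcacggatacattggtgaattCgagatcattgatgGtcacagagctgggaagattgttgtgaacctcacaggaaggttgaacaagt
Rps15a-ps7: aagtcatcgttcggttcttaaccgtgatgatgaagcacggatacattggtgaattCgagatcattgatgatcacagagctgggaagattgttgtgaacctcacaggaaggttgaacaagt
The parent lies on chromosome 7 and the copies on chromosomes 5, 11 and 2, in the order given. Within this stretch Rps15a-ps5 differed from the parent at 2 bases, Rps15a-ps6 at 3 and Rps15a-ps7 at 1. Over the whole coding sequence of 393 bases they had 5, 5 and 4 substitutions. T150C was the only substitution that all 3 shared, and Rps15a-ps3 carried it too among its 7 substitutions.

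The second set shows bases 244 to 363 of the coding sequence of the large-subunit gene Rpl31 (chromosome 1) beside Rpl31-ps15 (chromosome 3), the copy that nearly vanished in another single library. Capitals again mark the differing bases, 9 within these 120 bases.
Rpl31: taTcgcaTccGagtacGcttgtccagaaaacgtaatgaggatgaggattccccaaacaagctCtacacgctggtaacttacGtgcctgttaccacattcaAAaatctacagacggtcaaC
Rpl31-ps15: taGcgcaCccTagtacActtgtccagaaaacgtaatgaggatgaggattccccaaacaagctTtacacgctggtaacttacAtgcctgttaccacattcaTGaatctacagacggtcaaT
Over its whole length of 375 bases this copy differed from the parent at 17 positions (95.5% identity), and 28.5% of its 50-base windows occurred in another gene.

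The third set is shown because Rpl15-ps2 (chromosome 9) had the lowest fold change. It gives bases 37 to 156 of the large-subunit gene Rpl15 (chromosome 14), of that copy, and of Gm10020 (chromosome 15), an unnamed copy outside the set that was picked after its values were seen.
Rpl15: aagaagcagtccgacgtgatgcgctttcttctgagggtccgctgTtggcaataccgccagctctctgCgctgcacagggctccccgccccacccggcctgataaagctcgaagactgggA
Rpl15-ps2: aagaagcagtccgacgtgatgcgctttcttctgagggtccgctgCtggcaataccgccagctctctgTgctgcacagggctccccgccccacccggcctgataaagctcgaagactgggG
Gm10020: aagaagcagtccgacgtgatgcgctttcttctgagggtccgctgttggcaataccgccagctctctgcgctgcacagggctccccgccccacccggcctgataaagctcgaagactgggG
In this stretch Rpl15-ps2 differed from the parent at 3 bases and Gm10020 at 1. Both copies carry the last of these differences. Over its length Rpl15-ps2 was 98.7% identical to Rpl15 and as much to Gm10020.

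The fourth set shows the whole coding sequence of Rpl38 (chromosome 11), a large-subunit gene, and Rpl38-ps2 (chromosome 6), the copy whose counts followed its parent most closely. Capitals are absent because their 213 bases are the same.
Rpl38: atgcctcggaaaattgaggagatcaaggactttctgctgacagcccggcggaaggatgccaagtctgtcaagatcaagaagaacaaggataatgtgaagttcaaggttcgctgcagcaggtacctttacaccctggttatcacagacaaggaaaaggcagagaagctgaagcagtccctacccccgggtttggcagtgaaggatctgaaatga
Rpl38-ps2: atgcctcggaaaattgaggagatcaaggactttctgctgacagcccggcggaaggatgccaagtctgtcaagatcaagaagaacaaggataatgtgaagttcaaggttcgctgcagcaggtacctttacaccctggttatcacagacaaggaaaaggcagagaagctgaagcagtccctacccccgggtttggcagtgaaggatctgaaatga

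The libraries held 18062780 to 23846772 counts among those labelled knockout and 18763650 to 24415587 among wild types. Taking 3 counts as the 95% limit for a count of 0, a gene without counts can lie at up to 0.123 to 0.166 CPM (counts scaled to the same library total). This covers counting error only. Ak9 had 1538, 2403, 2043 and 697 counts in labelled knockouts 1 to 4, against 2019, 2563, 3008 and 2132 in wild types 1 to 4. In CPM scaled by TMM (trimmed mean of M values, a correction for library composition) this was 69.3, 116, 101 and 40.6, against 108, 115, 122 and 107. Ak9 thus lay below all wild types in labelled knockouts 1, 3 and 4 but not in labelled knockout 2, so the labels are used as given and their groups called labelled knockout. Epididymis markers summed to 212 CPM in labelled knockout 3 and 28.7 CPM in labelled knockout 4, and to at most 0.802 CPM in each of the other 6 libraries. Nearly all of these 212 and 28.7 CPM came from Crisp1 (185 and 24.4 CPM) and Adam7 (26.2 and 4.20 CPM). Lcn5, Lcn8, Defb20 and Spag11b were at no more than 0.444 CPM in any library. Spermatid markers summed to 5572 CPM in labelled knockout 3, 11142 to 13895 CPM in the other labelled knockouts and 8937 to 11649 CPM in wild types. Spermatocyte markers summed to 4064 CPM in labelled knockout 3, 5297 to 5766 CPM in the other labelled knockouts and 4811 to 5154 CPM in wild types. Within this sum only Ldhc was lowest in labelled knockout 3 (2346 CPM, against 3178 CPM or more elsewhere). Sycp3 (115 CPM) and Piwil1 (530 CPM) were highest there, and Hspa2 (1073 CPM) lay within the range of the other libraries. Spermatogonia markers summed to 49.4, 75.6, 88.6 and 51.4 CPM in labelled knockouts 1 to 4, against 67.3 to 86.9 CPM in wild types. Zbtb16 and Stra8 were lowest in labelled knockout 1, Kit in labelled knockout 4 and Gfra1 in labelled knockout 3. Sertoli cell markers were at 268 CPM in labelled knockout 3, 154 to 180 CPM in the other labelled knockouts and 172 to 197 CPM in wild types. Leydig cell markers summed to 666 CPM in labelled knockout 4, 1187 to 1459 CPM in the other labelled knockouts and 1341 to 1589 CPM in wild types. Insl3, Cyp17a1 and Hsd3b1 were lowest in labelled knockout 4, but Star was lowest in labelled knockout 2 (64.4 CPM, against 92.0 CPM in labelled knockout 4). The part these differences play in the results below was not tested, and in whole testis fewer cells of a type and less RNA per cell cannot be told apart.

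The pseudogenes were weakly counted. Their totals over 8 libraries ran from 10 to 1314 with a median of 33: 32 members had 10 to 19 counts, 29 had 20 to 49, 17 had 50 to 99 and 31 had 100 or more. The parents averaged 2.07 to 443 CPM with a median of 149 CPM. For every 100 counts of its parent, the median member had 0.153 counts (0.0191 to 39.4). Of the 109, 40 members had under 0.1, 22 had more than 1 and 2 had more than 10 counts per 100 parent counts. These last 2 were Rps10-ps1 and Rps10-ps2, and their parent Rps10, a small-subunit gene, was itself listed with 23 to 67 counts a library. In GENCODE M21, 20.6% of the exon bases of Rps10 also belong to a read-through gene, RPS10-NUDT3, which had 0 counts in every library.

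**Figure D1:**
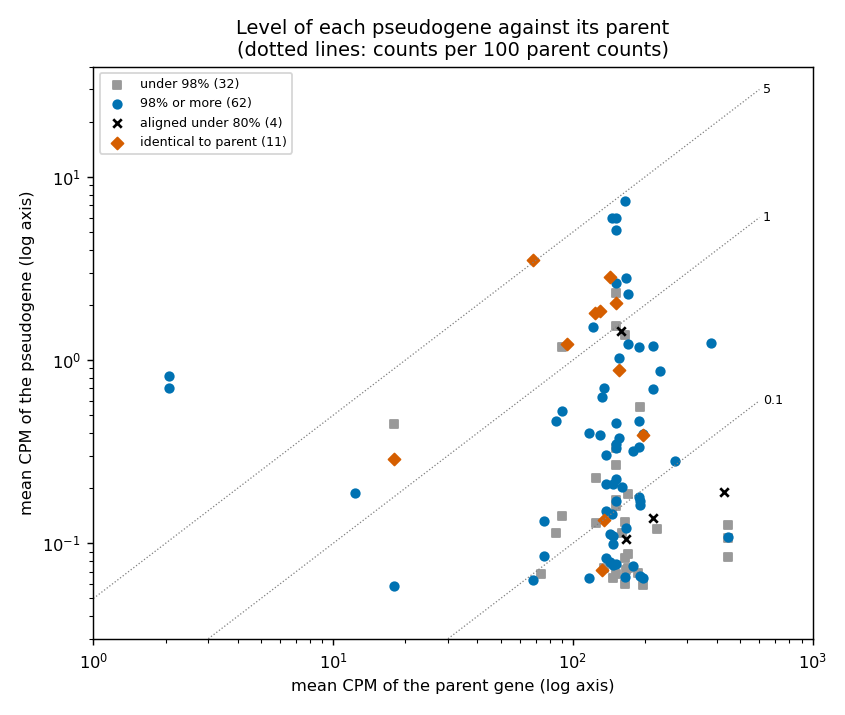
Mean TMM-scaled CPM over 8 libraries of each of the 109 pseudogenes (vertical, log axis) against that of its parent (horizontal, log axis), by identity with the parent transcript. Dotted lines mark 5, 1 and 0.1 counts per 100 parent counts; most points lie below 1, and the 2 points at the far left are the copies of Rps10.

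All members together made up 1.83, 0.896, 1.17 and 1.10 counts per 100 counts of their 44 parents in labelled knockouts 1 to 4, against 1.08, 1.01, 0.950 and 1.00 in wild types 1 to 4. Labelled knockout 1 stood above the other 7 libraries. Its sum was 3259 counts, against 1349 to 1497 in the other labelled knockouts and 1418 to 1540 in wild types. Without Rps2-ps10, described below, its value was 1.12 per 100 parent counts.

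Absence in single libraries was common but went with low counts. Of the 109 members, 47 had 0 counts in 1 or more libraries: 22 in exactly 1, 16 in 2, 8 in 3 and 1 in 4. Of all rows with a total of 10 or more counts, 15.4% had such a 0. The share was 24.9% among rows within the members' range of totals and 30.7% among the 345 other named pseudogenes. Neither was matched to the members' low totals, which had a median of 33 counts. By library, 14, 8, 11 and 18 members were at 0 in labelled knockouts 1 to 4, against 5, 5, 13 and 8 in wild types 1 to 4, so the ranges of the groups overlapped. Of the 61 members with a total under 50, 46 had a 0, and of the 48 with 50 or more, 1 did. That member was Rps15a-ps3, with 14, 0, 11 and 6 counts in labelled knockouts 1 to 4, against 7, 5, 8 and 4 in wild types 1 to 4. The member at 0 in 4 libraries was Rpl36a-ps1, with 7 counts in labelled knockout 1 and at most 1 in any other library. Of the 33 members that passed the low-count filter of edgeR, 0 had a 0 in any library, against 0.688% of all genes that passed it.

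One member was high in a single library, taking at least 4 times the CPM of the next library and at least 10 counts as the rule. Among all rows with 10 or more counts 0.252% met it, among those within the members' range of totals 0.391%, and among the other named pseudogenes 0.29%. This was Rps2-ps10, with 1274, 10, 11 and 1 counts in labelled knockouts 1 to 4, against 3, 9, 2 and 4 in wild types 1 to 4. Labelled knockout 1 alone held nearly all of its counts, and the other 7 libraries held at most 11 each. Its parent Rps2, which encodes a small-subunit protein, had 1972, 3420, 3728 and 2836 counts in labelled knockouts 1 to 4, against 3533, 3836, 4288 and 3757 in wild types 1 to 4. The library with the high copy was the one with the lowest parent. In CPM, Rps2 was at 88.9 in labelled knockout 1, 165 to 184 in the other labelled knockouts and 172 to 189 in wild types. Rps2 and its 6 members added together came to 148, 167, 186 and 167 CPM in labelled knockouts 1 to 4, against 191, 175, 175 and 190 CPM in wild types 1 to 4. The coefficient of variation over 8 libraries was 19.6% for Rps2 alone and 8.27% for this sum. Rps2-ps10 was 99.4% identical to Rps2 over 96.8% of its length, with 6 differing positions. It overlaps Pde6a, a phosphodiesterase gene on the other strand, which had 26, 42, 25 and 14 counts in labelled knockouts 1 to 4, against 15, 22, 17 and 26 in wild types 1 to 4. Pde6a was not highest in labelled knockout 1. Since its high value stood in 1 library, Rps2-ps10 did not pass the filter and was not tested between groups.

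Low values in single libraries, at most 1/4 of the next lowest CPM where that library had 10 or more counts, were seen for 4 members, against 0.573% of all rows with 10 or more counts, 0.782% of those within the members' range of totals and 1.74% of the other named pseudogenes. Of these 4, 3 were copies of Rps15a, lowest in labelled knockout 2. Rps15a-ps6 had 221, 7, 177 and 112 counts in labelled knockouts 1 to 4, against 66, 135, 165 and 114 in wild types 1 to 4. Rps15a-ps7 had 258, 6, 143 and 92 counts in labelled knockouts 1 to 4, against 128, 71, 60 and 80 in wild types 1 to 4. Rps15a-ps5 had 107, 8, 90 and 39 counts in labelled knockouts 1 to 4, against 35, 37, 68 and 58 in wild types 1 to 4. Each of the 3 was highest in labelled knockout 1 and had under 10 counts in labelled knockout 2, the library in which Rps15a-ps3 was at 0. Rps15a itself had 3417, 3772, 2110 and 2719 counts in labelled knockouts 1 to 4, against 2934, 3229, 3537 and 3242 in wild types 1 to 4. In CPM the parent was highest in labelled knockout 2 (182) and lowest in labelled knockout 3 (104).

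Added together, these 3 copies had 17.1, 0.557, 19.4 and 8.94 counts per 100 counts of Rps15a in labelled knockouts 1 to 4, against 7.81, 7.53, 8.28 and 7.77 in wild types 1 to 4. The wild types lay close to each other in this sum although the single copies did not. Rps15a-ps7, for example, ran from 2.43 to 6.84 CPM among wild types, and was highest in wild type 1, where Rps15a-ps6 was lowest (3.53 CPM). Labelled knockouts 1 and 3 lay above all wild types, labelled knockout 2 far below, and labelled knockout 4 just above. Rps15a and its 6 members added together had a coefficient of variation of 11.6% over 8 libraries, against 14.8% for Rps15a alone. Rps15a-ps6 lies within Nudcd3 on the same strand and Rps15a-ps5 opposite Lrrc8d. Nudcd3 had 965 counts in labelled knockout 2 and 871 to 1095 in the other labelled knockouts, against 989 to 1219 in wild types. Lrrc8d had 441 counts in labelled knockout 2 and 327 to 545 in the other labelled knockouts, against 352 to 497 in wild types, so neither overlapping gene stood apart in labelled knockout 2.

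The fourth low member was Rpl31-ps15, a copy of a large-subunit gene. It had 60, 87, 61 and 1 counts in labelled knockouts 1 to 4, against 52, 41, 53 and 38 in wild types 1 to 4. Labelled knockout 4 had 1 count, under the 3 counts that a count of 0 allows, while each of the other 7 libraries had 38 or more. Rpl31 had 3800, 3352, 2521 and 2652 counts in labelled knockouts 1 to 4, against 2853, 3223, 3558 and 3156 in wild types 1 to 4. The parent was not lowest in labelled knockout 4 (155 CPM there, 124 CPM in labelled knockout 3). Labelled knockout 4 was also the library in which the sum of Leydig cell markers was lowest (666 CPM). It was 1 of the 2 in which the epididymis markers Crisp1 and Adam7 were high. The part of these markers in the low value of Rpl31-ps15 was not tested. No annotated gene overlaps Rpl31-ps15 in GENCODE M21. A gap of at least 2 on the log2(CPM + 0.5) scale between neighbouring libraries, whichever libraries lay above it, was found in 3 members (Rps2-ps10, Rps15a-ps6 and Rpl31-ps15), in 0.409% of all rows with 10 or more counts, in 0.433% of those within the members' range of totals and in 1.16% of the other named pseudogenes. In each of the 5 members high or low in a single library, that library was labelled knockout. Of these 5, 3 were the copies of Rps15a in labelled knockout 2. How often this held over all rows was not counted, and 84.9% of all tested genes had the larger spread among labelled knockouts.

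**Figure D2:**
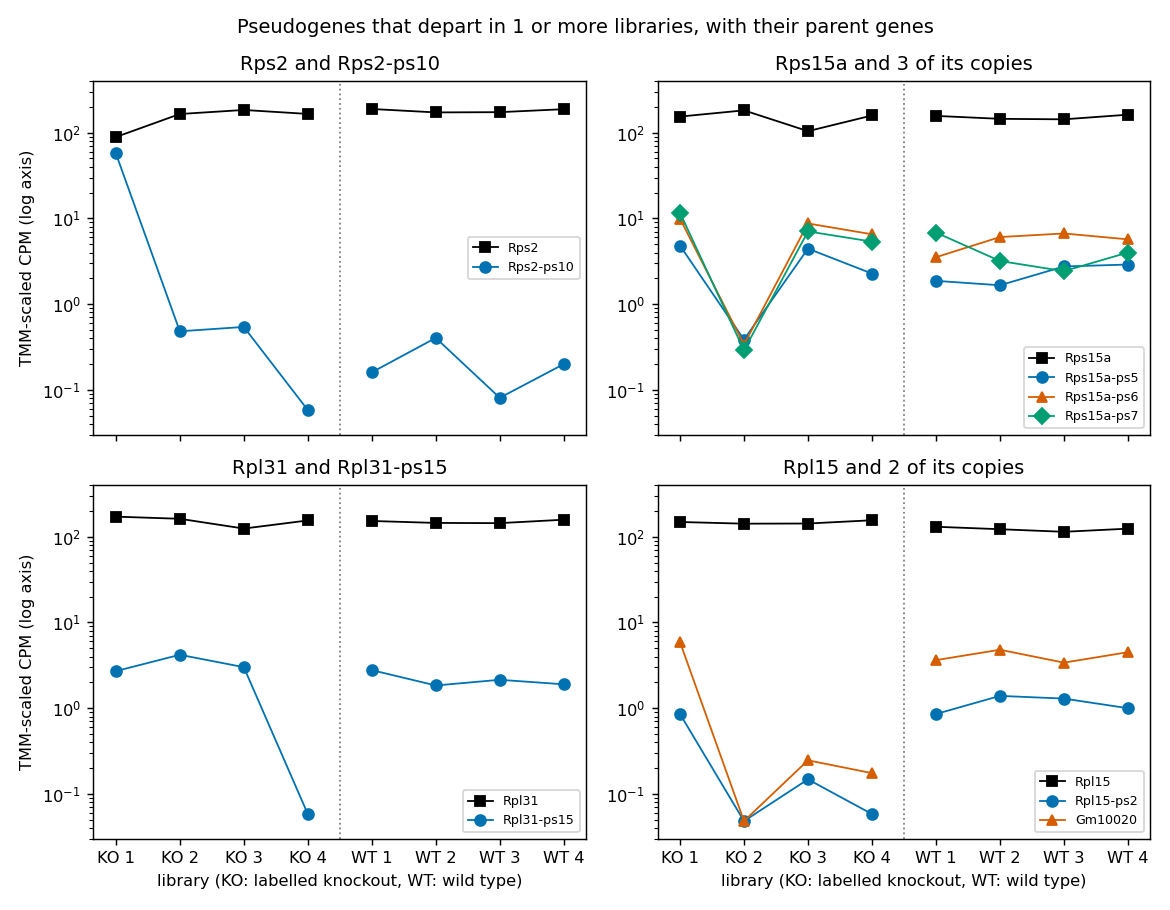
TMM-scaled CPM (vertical, log axis) of pseudogenes and their parents in labelled knockouts 1 to 4 (left of the dotted line) and wild types 1 to 4 (right). Parents (black squares) lie between 88.9 and 189 CPM, and the lowest of these values is Rps2 in labelled knockout 1. Rps2-ps10 is high in that library, and the 3 copies of Rps15a are low in labelled knockout 2. Rpl31-ps15 is low in labelled knockout 4, and Rpl15-ps2 and Gm10020 are low in labelled knockouts 2 to 4.

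Among the 33 members that passed the filter, the median SD of log2(CPM + 0.5) was 0.37 in labelled knockouts and 0.28 in wild types. Over all 21805 genes that passed it these medians were 0.30 and 0.13, and over 79 cytosolic ribosomal protein genes 0.22 and 0.08. The SD was larger among labelled knockouts in 25 of the 33 members and in 84.9% of all genes.

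**Figure D3:**
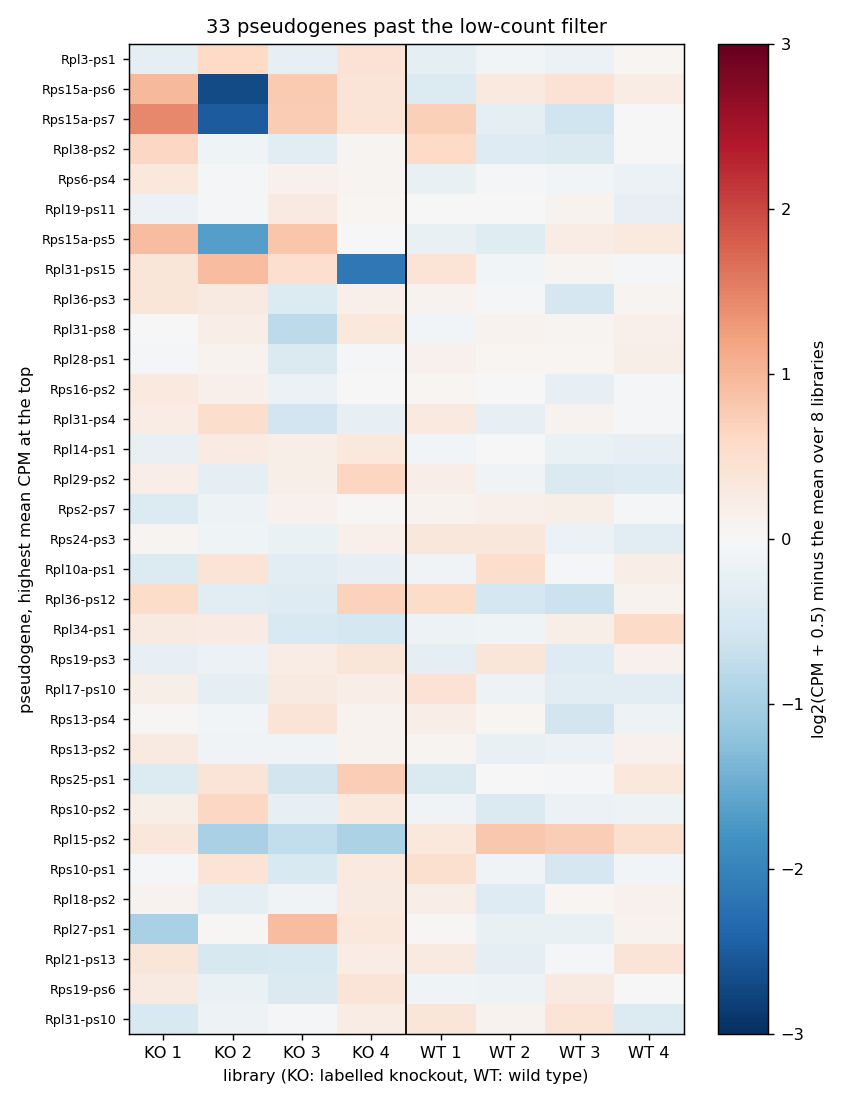
log2(CPM + 0.5) of the 33 pseudogenes that passed the low-count filter, minus each one's mean over 8 libraries, by library (labelled knockouts left, wild types right) with the highest mean CPM at the top. The darkest cells are Rps15a-ps6, Rps15a-ps7 and Rps15a-ps5 in labelled knockout 2 and Rpl31-ps15 in labelled knockout 4.

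Whether a copy followed its parent was measured by the correlation of log2(CPM + 0.5) over the 8 libraries, for the members and the other named pseudogenes of any family with a usable parent, 275 in all. The members' median Pearson r was 0.06 (from -0.965 to 0.981), with 61 of 109 above 0, 12 above 0.7 and 5 below -0.7. The 166 other named pseudogenes had a median r of 0.17, with 22 above 0.7 and 5 below -0.7. With an exact permutation p adjusted over all 275 (Benjamini-Hochberg), 1 member followed its parent past the threshold of 0.05 with r above 0, against 0.727% of the 275. At an unadjusted exact p under 0.05 there were 11 members of 109 with r above 0 and 4 with r below 0, against 21 and 4 of the 166 other named pseudogenes. Over the 8 libraries the parents themselves had a median r of 0.43 with each other. Ranked among all 44 parents by r, a member's own parent came first for 3 members and among the highest 11 for 26, with a median rank of 24. These ranks are close to those of a parent drawn at random from the 44. The median r of a member with the other parents was 0.10.

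Rpl38-ps2 was the member past the threshold. It had 120, 63, 52 and 61 counts in labelled knockouts 1 to 4, against 99, 55, 58 and 66 in wild types 1 to 4. Rpl38, whose protein is needed in mouse embryos for the translation of certain Hox mRNAs, had 2128, 1330, 1183 and 1160 counts in labelled knockouts 1 to 4, against 1819, 1144, 1141 and 1262 in wild types 1 to 4. Both were highest in labelled knockout 1 and wild type 1. So were other ribosomal protein genes, among them Rps29 (160 and 151 CPM there), Rpl36 (233 and 207 CPM) and Rpl37 (151 and 133 CPM), but not Rpl29. The r of Rpl38-ps2 with these genes is not given here. Following Rpl38 and sharing a pattern of several ribosomal protein genes therefore cannot be told apart. Over the 8 libraries r was 0.981 (exact permutation p = 9.92e-05, adjusted p = 0.00909) and Spearman's rho 0.952 (exact permutation p = 0.00114, adjusted p = 0.157). Without the 2 libraries farthest from the median of Rpl38, labelled knockout 1 and wild type 1, r was 0.913. All 164 of its 50-base windows occur in Rpl38, so the sequence gives no base by which reads of the copy and of the parent's coding part could be told apart.

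The next highest r belonged to Rps13-ps2 and Rpl36-ps12, copies of a small-subunit and a large-subunit gene. Rps13-ps2 had 26, 16, 16 and 17 counts in labelled knockouts 1 to 4, against 18, 15, 18 and 20 in wild types 1 to 4. Its r with Rps13 was 0.914 (exact permutation p adjusted over 275 = 0.188), rho was 0.690, and it too was identical to its parent. Rps13 had 197, 142, 140 and 159 CPM in labelled knockouts 1 to 4, against 167, 142, 142 and 158 CPM in wild types 1 to 4, with the highest value of each group in its library 1. Rpl36-ps12 had 41, 16, 15 and 36 counts in labelled knockouts 1 to 4, against 35, 14, 13 and 25 in wild types 1 to 4. It was highest, like Rpl36 (233, 162, 132 and 174 CPM in labelled knockouts, against 207, 142, 136 and 173 CPM in wild types), in libraries 1 and 4 of each group. Its r was 0.853 (exact permutation p adjusted over 275 = 0.228), and rho was 0.833.

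At the other end stood Rps2-ps10 with r = -0.965 and rho = -0.357 (exact permutation p of r adjusted over 275 = 0.372). Without labelled knockout 1 and wild type 1, the libraries farthest from the median of Rps2, this r was 0.17. Only labelled knockout 1 stood apart in Rps2-ps10 itself (57.4 CPM), and r without that library alone is not given here. Rpl3-ps1, on the X chromosome, is a copy of Rpl3, whose protein reaches close to the peptidyl transferase centre of the ribosome. It had 103, 189, 97 and 137 counts in labelled knockouts 1 to 4, against 88, 122, 125 and 122 in wild types 1 to 4. It was highest in labelled knockouts 2 and 4 (9.12 and 7.99 CPM), where Rpl3 was lowest (127 and 113 CPM, against 141 to 169 CPM in the other 6 libraries). Its r was -0.821 (exact permutation p adjusted over 275 = 0.276) and rho -0.762, and without those 2 libraries r was -0.21. Rpl27-ps1 had 1, 12, 31 and 14 counts in labelled knockouts 1 to 4, against 11, 9, 10 and 13 in wild types 1 to 4. It was lowest in labelled knockout 1 and highest in labelled knockout 3. Rpl27, a large-subunit gene, was highest in labelled knockout 1, with 156, 136, 119 and 119 CPM in labelled knockouts 1 to 4, against 138, 128, 126 and 135 CPM in wild types 1 to 4. The r of this pair was -0.799 (exact permutation p adjusted over 275 = 0.303) and rho -0.595, and r was -0.541 without labelled knockouts 1 and 4. The log2 fold change of Rpl27-ps1, labelled knockout over wild type, was 0.53 (SE 0.63).

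Correlation was set beside sequence identity as a description. Among members with a mean of 10 or more counts, the 7 that were identical to the parent had a median r of 0.72, with 6 above 0. The 20 at 98% or more but not identical had a median r of -0.28, with 8 above 0. The 5 under 98% had a median r of -0.06, with 2 above 0. All members of these classes, low counts included, had median r of 0.38 (11 members), 0.11 (62 members) and -0.05 (32 members). Identical members had a median of 1.35 counts per 100 parent counts, against 0.211 for those at 98% or more and 0.0850 for those below. Of the 11 identical members, Rpl15-ps3 (r = -0.666), Rpl36a-ps2 (r = -0.443) and Rpl10a-ps1 (r = -0.0244) had r below 0, and Rpl28-ps1 was close to 0 (r = 0.0589). Rpl15-ps3 and Rpl36a-ps2 had means of only 2.88 and 5.88 counts a library, against 25.8 for Rpl10a-ps1 and 38.8 for Rpl28-ps1. Rpl10a-ps1 had 17, 36, 17 and 16 counts in labelled knockouts 1 to 4, against 20, 43, 28 and 29 in wild types 1 to 4, and was highest in library 2 of each group. Rpl10a had 95.9, 94.7, 102 and 83.3 CPM in labelled knockouts 1 to 4, against 99.8, 93.2, 87.9 and 97.9 CPM in wild types 1 to 4.

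**Figure D4:**
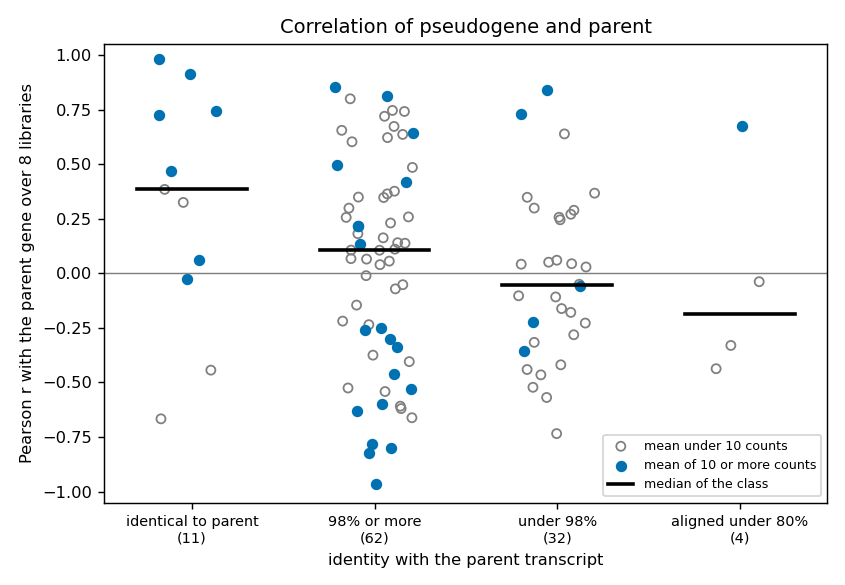
Pearson r of each of the 109 pseudogenes with its parent over 8 libraries (vertical), by identity with the parent transcript (horizontal, number of members in brackets). Filled points have a mean of 10 or more counts and black bars are class medians, 0.38 for identical copies, 0.11 for those at 98% or more, -0.05 for those below, and -0.18 for the 4 that aligned over less than 80% of their length or not at all.

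Adding the members to their parent made the coefficient of variation over 8 libraries lower for 32 of the 44 parents and higher for 12. An added amount that does not rise and fall with the parent tends to lower this coefficient by arithmetic. The tally is therefore a description only. The coefficient moved by more than 1 percentage point for 4 parents: Rps2 and Rps15a, described above, Rps10 (34.3% alone, 21.4% with its members) and Rpl3 (12.4% alone, 11.1% with its members).

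Between labelled knockout and wild type, 0 of the 33 members that could be tested passed an adjusted p of 0.05 in edgeR's quasi-likelihood test. Of all 21805 genes, 0.0183% did, that is 4 genes, all higher. Rps26-ps1, left out of the set by its rule, was one of these 4. DESeq2 (0.211% of 21777 genes called) and limma-voom (0.0183% called) called 0 members as well. At an unadjusted p under 0.05 edgeR gave 2 members, Rps10-ps2 higher and Rpl15-ps2 lower, against 3.04% of all genes (1.25% higher, 1.79% lower). The log2 fold changes of labelled knockout over wild type ran from -1.95 to 0.76 with standard errors of 0.18 to 0.67. They were above 0 for 23 members and below 0 for 10, with a median of 0.19. Over all tested genes the median was 0.01 and 52.9% were above 0. The other 76 members were under the filter and were not tested.

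**Figure D5:**
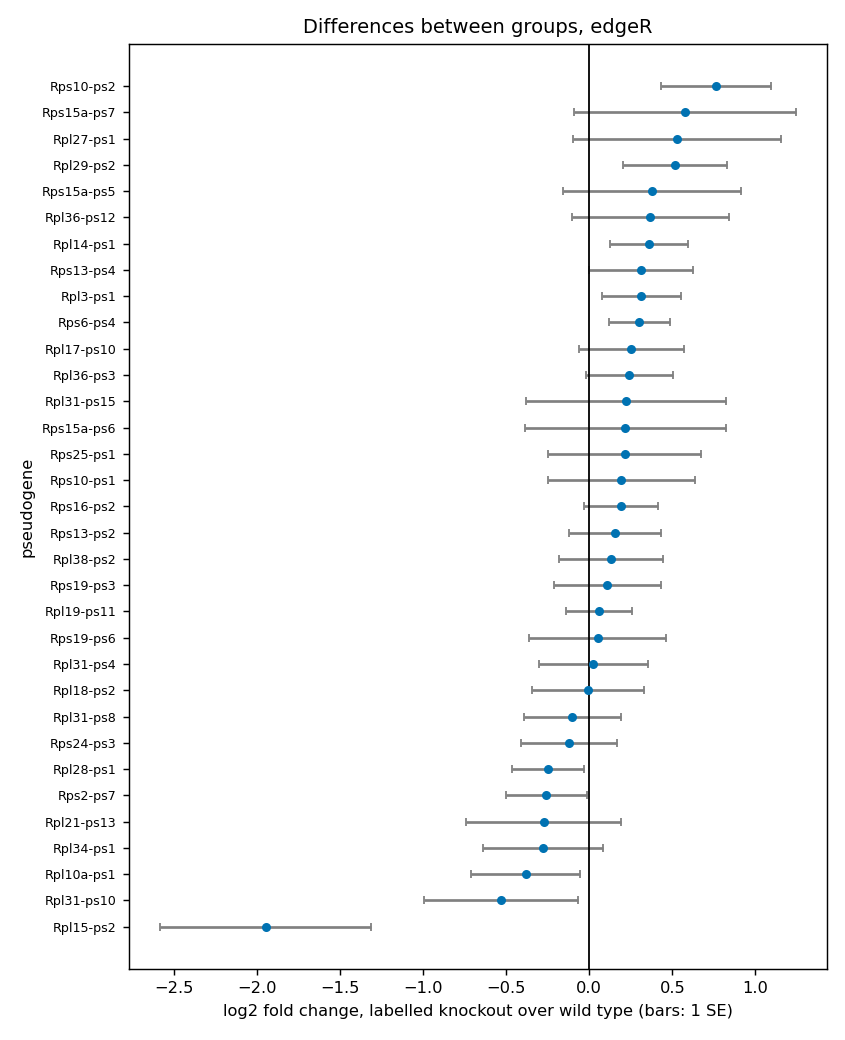
edgeR log2 fold change of labelled knockout over wild type (horizontal, bars of 1 SE, 4 libraries a group) for the 33 tested pseudogenes (vertical). Estimates run from 0.76 for Rps10-ps2 down to -1.95 for Rpl15-ps2, and 0 of them passed an adjusted p of 0.05.

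The lowest fold change was that of Rpl15-ps2. It had 19, 1, 3 and 1 counts in labelled knockouts 1 to 4, against 16, 31, 32 and 20 in wild types 1 to 4. Labelled knockouts 2, 3 and 4 lay far below every wild type, and labelled knockout 1 lay among them. The log2 fold change was -1.95 (SE 0.63, edgeR adjusted p = 1.00, DESeq2 adjusted p = 0.636). Without labelled knockout 1 it was -3.65 (SE 0.48) and passed in edgeR (adjusted p = 0.0170). Rpl15-ps2 was then 1 of 33 genes called among 22127 (9 higher, 24 lower). Over the other alternatives edgeR, DESeq2 and limma-voom gave adjusted p of 0.196 to 1.00. Gm10020 had 131, 1, 5 and 3 counts in labelled knockouts 1 to 4, against 68, 107, 84 and 90 in wild types 1 to 4, and so was high and low in the same libraries. Rpl15 had 148, 142, 142 and 155 CPM in labelled knockouts 1 to 4, against 131, 122, 114 and 124 CPM in wild types 1 to 4, and all labelled knockouts lay above all wild types. The log2 fold change of Rpl15 was 0.26 (SE 0.09, edgeR adjusted p = 1.00). Tcf12, a transcription factor gene opposite Rpl15-ps2, had 518, 643, 679 and 355 counts in labelled knockouts 1 to 4, against 558, 812, 768 and 593 in wild types 1 to 4.

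The highest fold change was that of Rps10-ps2, with 21, 31, 12 and 19 counts in labelled knockouts 1 to 4, against 13, 10, 16 and 13 in wild types 1 to 4. The groups overlapped, and the log2 fold change was 0.76 (SE 0.33, edgeR adjusted p = 1.00). Rps10 had 1.04, 2.41, 3.31 and 1.81 CPM in labelled knockouts 1 to 4, against 1.44, 2.60, 1.86 and 2.05 CPM in wild types 1 to 4. Rpl29-ps2, which aligned with its parent over 54.5% of its length, had 37, 22, 33 and 42 counts in labelled knockouts 1 to 4, against 31, 28, 22 and 19 in wild types 1 to 4 (log2 fold change 0.52, SE 0.31, edgeR adjusted p = 1.00). Rpl29, a large-subunit gene, had 175, 149, 111 and 276 CPM in labelled knockouts 1 to 4, against 161, 129, 137 and 137 CPM in wild types 1 to 4, and copy and parent were both highest in labelled knockout 4. Rps6-ps4 is identical to Rps6, whose protein is phosphorylated by S6 kinases. It had 81, 57, 63 and 52 counts in labelled knockouts 1 to 4, against 44, 61, 65 and 49 in wild types 1 to 4. In CPM these were 3.65, 2.75, 3.11 and 3.03, against 2.35, 2.74, 2.63 and 2.45, so the groups did not overlap, with 2.75 and 2.74 CPM as the nearest pair. Rps6 had 182, 141, 140 and 146 CPM in labelled knockouts 1 to 4, against 162, 124, 112 and 136 CPM in wild types 1 to 4. The log2 fold change was 0.30 for Rps6-ps4 (SE 0.18, edgeR adjusted p = 1.00) and 0.19 for Rps6 (SE 0.14). Rps6-ps4 was the only member of the 33 whose groups did not overlap, against 2.3% of all tested genes (0.981% higher, 1.32% lower). With CPM per library total, without TMM, the only such member was Rpl15-ps2, lower in labelled knockouts.

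The next lowest fold changes after Rpl15-ps2 were those of Rpl31-ps10 and Rpl10a-ps1. Rpl31-ps10 had 4, 7, 8 and 10 counts in labelled knockouts 1 to 4, against 13, 11, 18 and 4 in wild types 1 to 4, and the groups overlapped (log2 fold change -0.53, SE 0.46, edgeR adjusted p = 1.00). For Rpl10a-ps1 the log2 fold change was -0.38 (SE 0.33, edgeR adjusted p = 1.00).

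For the 4 members that were low in a single library the standard errors were larger than the fold changes. Rps15a-ps5, Rps15a-ps6 and Rps15a-ps7 had log2 fold changes of 0.38, 0.22 and 0.58 with standard errors of 0.53, 0.60 and 0.67. That of Rpl31-ps15 was 0.22 (SE 0.60).

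The genes of the functional ribosome were tested as a list of 79 cytosolic ribosomal protein genes, all of which passed the filter. In edgeR 0 of the 79 passed an adjusted p of 0.05, and the smallest adjusted p was 0.947. Their log2 fold changes were above 0 for 61 and below 0 for 18, with a median of 0.06, against 0.01 over all tested genes. The lowest was that of Rps3a1, a small-subunit gene with 91.2, 95.3, 84.3 and 139 CPM in labelled knockouts 1 to 4, against 140, 162, 152 and 153 CPM in wild types 1 to 4 (log2 fold change -0.57, SE 0.15). All labelled knockouts lay below all wild types. Without labelled knockout 4 Rps3a1 passed in edgeR (log2 fold change -0.75, SE 0.10, adjusted p = 0.0179). Rps3a1 was then 1 of 33 genes called among 22306 (14 higher, 19 lower).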

How the data were processed

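Whole-testis RNA of 8 libraries, 4 a group, was analysed from the table of raw, whole-number counts per gene deposited by the authors. The tools named, per the submitters' processing notes, are Trimmomatic, STAR, featureCounts and DESeq2, and the builds GRCm39 and mm39. Versions, annotation, strand setting and the handling of multiply matching reads: not given in the sources used here. Every column had a sample. Identifiers were given symbols for 52073 rows and none for 4675. GENCODE M21 is on GRCm38, so no coordinates are printed.

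The fit covered all genes past filterByExpr (33 of the 109 pseudogenes): TMM scaling, then edgeR 4.0.16 quasi-likelihood tests without covariates in R 4.3.3, Benjamini-Hochberg over all tested genes, threshold 0.05. CPM are TMM-scaled, with a pseudocount of 0.5 before log2. The parent is the gene named before -ps. Correlations used exact permutation over all 40320 pairings. Identity came from blastn 2.17.0 on transcripts and the 50-base windows from exact matches. The scripts were tested on simulated data.

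Values in every library are given for the 6 members with the highest mean CPM, the 3 with the smallest p in each direction, those that departed in a single library or had a 4-fold gap, the 3 with the highest and the 3 with the lowest r (mean of 10 or more counts), their parents, and Ak9. The others named were chosen after their values were seen. The members and lists were chosen with earlier results of these data known. No library was a copy of another, with a chi-square per gene of 4.52 or more between libraries of a group. Over all tested genes, deviations of same-numbered libraries from their group means did not go together, so the numbers were not used as pairs. Some ribosomal protein genes still ranked the libraries alike in both groups. Rpl41 had 477, 394, 269 and 398 CPM in labelled knockouts 1 to 4, against 436, 300, 294 and 358 CPM in wild types. Rpl29 did not, being highest in labelled knockout 4 and wild type 1. How many genes ranked alike was not counted.

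The alternatives tried were a replicate block, DESeq2's size factors in place of TMM, all genes unfiltered, DESeq2 1.42.0, limma-voom (limma 3.58.1), CPM per library total, other pseudocounts and folds, Spearman's rho, centring on group means, and leaving out each library in turn. The correlation of Rpl38-ps2 under each of these, the sums of each parent with its members, and the members' sum without Rps2-ps10 were added after seeing the data.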

Additional observations from a re-analysis of the deposited data

Results flagged for a closer look

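In groups of 4 libraries, a library was singled out where its gap to the nearest other library, divided by the range of its group, passed Dixon's 95% critical value on the log2(CPM + 0.5) scale. Of 58 groups of 4 looked at (16 members and 13 parents, in 2 groups each), 4 met this. Chance gives about 1 in 20 groups, close to the number met. That rate does not apply to Rps2-ps10 and Rps15a-ps6, which were looked at because a single library stood out in them, so their values restate that choice. Rps2 came in as the parent of Rps2-ps10. The other members were named for their mean CPM, p, r or a single library, so the rate is not exact for them or their parents either. All 4 were labelled knockouts. Rps2-ps10 stood at 57.4 CPM in labelled knockout 1, against 0.0583 to 0.543 CPM in the other labelled knockouts. Rps15a-ps6 stood at 0.338 CPM in labelled knockout 2, against 6.53 to 9.96 CPM in the others. Of the parents, Rps2 stood at 88.9 CPM in labelled knockout 1, against 165 to 184 CPM in the others, and Rps6, the parent of Rps6-ps4, at 182 CPM in labelled knockout 1, against 140 to 146 CPM in the others. Labelled knockout 1 thus accounts for 3 of the 4.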

How the results depend on the processing

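The replicate block left the pseudogenes called at 0 and the genes called at 4. Over all tested genes same-numbered libraries deviated together with r of only -0.0192 to 0.0742, although some ribosomal protein genes ranked the libraries alike in both groups. All genes called were 26 without a low-count filter (16 higher, 10 lower), 46 in DESeq2 (23 higher, 23 lower) and 3 to 35 with a library left out, against 4. With a library left out, pseudogenes called ran from 0 to 1 (Rpl15-ps2, without labelled knockout 1), ribosomal protein genes called from 0 to 1 (Rps3a1, without labelled knockout 4), pseudogenes high in a single library from 0 to 1 (0 without labelled knockout 1), low ones from 2 to 5 (2 without labelled knockout 2), non-overlapping ones from 1 to 5, and those following the parent from 0 to 1. With 7 libraries the adjusted p of Rpl38-ps2 ran from 0.0364 (without wild type 1 or 4) to 0.109 (without labelled knockout 1). A pseudogene that alone had the smallest possible p with 7 libraries could not go under an adjusted p of 0.0546. A loss of the call with a library left out therefore says nothing on stability. The r of Rpl38-ps2 was 0.969 to 0.991 with each library left out and with CPM per library total, a pseudocount of 2 and values centred on group means. The number following the parent was also 0 with CPM per library total, with Spearman's rho and with values centred on group means. Centred, a pseudogene that alone had the smallest possible p could not go under an adjusted p of 0.477, so that loss says nothing on stability. A 2-fold rule gave 2 pseudogenes high in a single library, a pseudocount of 2 gave 1 with a 4-fold gap, and members past the filter had 0 at 0 counts and a median of 1.23 counts per 100 parent counts. The sum in labelled knockout 1 was 1.12 per 100 without Rps2-ps10. Of 195 log2 fold changes of 15 named members, 182 kept direction and side of the threshold. The 12 that changed sign, none past it, were -0.162 (limma-voom) and, with a library left out, -0.143 (highest 0.939) for Rpl27-ps1, -0.0886 (block), -0.582 (limma-voom) and, with a library left out, -0.146 (highest 0.610) for Rpl31-ps15, -0.133 and -0.0105 (highest 0.434) with a library left out for Rpl38-ps2, -0.0848 (limma-voom) for Rps15a-ps5, -0.108 (block), -0.525 (limma-voom) and, with a library left out, -0.0896 (highest 0.603) for Rps15a-ps6, and -0.134 (limma-voom) for Rps15a-ps7. The cause was not tested. Depth limits the 61 members with a total under 50, of which 46 had a 0.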
